A study of Mus musculus with 2 samples.

Results

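The 8 genes Sox1, Pax6, Pax3, Nes, Neurog2, Zic1, Hes5 and Olig2 are regulators or markers of neuroectoderm, the part of the early embryo that gives rise to the nervous system. They were taken by name, not by a rule on measured values, from 21755 protein-coding genes on mouse chromosomes 1 to 19 and X. Earlier results of these data were known when they were chosen. Around each transcription start site (TSS) the binding sites of Nanog in mouse embryonic stem cells (ESCs) were listed when the middle base of the peak lay within 100 kb, or when the gene was the nearest protein-coding gene. Of 8735 distinct Nanog peaks on the primary chromosomes, 8 lay within 100 kb of 1 of these genes, and 5 of those 8 had the gene itself as the nearest protein-coding gene.

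The data are chromatin immunoprecipitation with sequencing (ChIP-seq) with an antibody against Nanog in Bruce-4 cells, a mouse ESC line kept with fetal bovine serum and the cytokine LIF, with no treatment or genetic change named in the labels. There is 1 immunoprecipitated sample and 1 input sample, neither replicated, and only the immunoprecipitated sample has a peak list here. The list gives positions alone, so the strength of each peak and the reads in it are unknown. A count carries no replicate error, and a gene without a peak cannot be told from a gene with binding under the threshold of the peak call. No expression was measured in this series, so the ESC label could be set only against peak positions. There, 11 of 12 naive pluripotency genes, all but Esrrb, had a peak within 100 kb, beside 54.8% of all protein-coding genes. All 12 were the nearest protein-coding gene of at least 1 peak, beside 24.6% of all. That second share also depends on gene spacing. The stretch nearest to each of the 12 genes measured 19.4 kb (Tfe3) to 775 kb (Nr5a2), beside a median of 47.2 kb for all genes.

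Nanog is a homeodomain transcription factor that helps to hold ESCs in the pluripotent state, and it occupies many regulatory regions together with Oct4 and Sox2. When ESCs leave that state without other signals, many of them turn towards neuroectoderm, where SoxB1 and Pax factors mark the neural plate, proneural bHLH factors drive neurons to form, and Notch effectors of the Hes family keep progenitors from differentiating. Many genes of this program are silent or nearly so in undifferentiated ESCs, often under Polycomb repression, although some, Sox2 among them, are active there.

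The sequences of the peaks closest to Neurog2, Nes, Pax6, Hes5 and Olig2 are shown because they are the material on which the positions and motifs below rest, and both peaks of the Pax6 pair are included. They are read from GRCm38/mm10 on the plus strand, which is also the coding strand of these 5 genes, and capitals mark every match to the 10 motifs searched.
Neurog2, 425 bp upstream of the TSS, chr3:127632592-127632828: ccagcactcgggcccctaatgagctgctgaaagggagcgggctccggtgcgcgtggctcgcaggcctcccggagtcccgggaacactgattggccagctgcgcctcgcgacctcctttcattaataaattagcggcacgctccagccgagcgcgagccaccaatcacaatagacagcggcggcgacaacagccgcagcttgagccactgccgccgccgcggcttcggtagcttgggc
Nes, 3528 bp downstream, the central 300 of 311 bases, chr3:87974456-87974755: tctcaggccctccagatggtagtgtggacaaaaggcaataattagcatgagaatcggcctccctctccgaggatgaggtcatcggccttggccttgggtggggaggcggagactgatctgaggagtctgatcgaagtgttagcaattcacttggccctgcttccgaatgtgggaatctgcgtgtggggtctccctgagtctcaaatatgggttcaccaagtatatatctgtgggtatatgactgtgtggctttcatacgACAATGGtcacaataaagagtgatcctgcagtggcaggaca
Pax6, 8622 bp downstream, chr2:105677403-105677641: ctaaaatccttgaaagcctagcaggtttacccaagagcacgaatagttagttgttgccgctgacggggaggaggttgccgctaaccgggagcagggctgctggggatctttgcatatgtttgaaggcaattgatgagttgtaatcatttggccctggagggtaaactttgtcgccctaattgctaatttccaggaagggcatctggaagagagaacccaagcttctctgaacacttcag
Pax6, 8980 bp downstream, chr2:105677754-105678006: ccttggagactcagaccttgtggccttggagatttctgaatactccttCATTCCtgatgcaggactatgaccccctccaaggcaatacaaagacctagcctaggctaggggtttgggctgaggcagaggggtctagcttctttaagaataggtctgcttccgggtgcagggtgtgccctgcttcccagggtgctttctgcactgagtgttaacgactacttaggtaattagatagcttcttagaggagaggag
Hes5, 83327 bp upstream, chr4:154877452-154877741: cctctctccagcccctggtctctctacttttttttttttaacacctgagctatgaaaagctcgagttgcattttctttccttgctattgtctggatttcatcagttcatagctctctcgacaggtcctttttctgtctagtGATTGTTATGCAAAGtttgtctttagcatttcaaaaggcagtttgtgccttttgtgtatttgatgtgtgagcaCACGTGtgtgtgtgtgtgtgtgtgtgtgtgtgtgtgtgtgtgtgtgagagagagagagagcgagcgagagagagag
Olig2, 84809 bp upstream, chr16:91140531-91140765: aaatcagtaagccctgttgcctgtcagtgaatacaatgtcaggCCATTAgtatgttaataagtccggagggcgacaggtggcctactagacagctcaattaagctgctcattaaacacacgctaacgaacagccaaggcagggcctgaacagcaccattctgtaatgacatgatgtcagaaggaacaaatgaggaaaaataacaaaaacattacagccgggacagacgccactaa

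Neurog2 had 3 peaks within 100 kb, Pax6 had 2, and Nes, Hes5 and Olig2 had 1 each, whereas Sox1, Pax3 and Zic1 had 0. A peak within 100 kb was thus found for 5 of 8 genes (62.5%), beside 54.8% of all protein-coding genes. Neurog2, Pax6 and Nes were also the nearest protein-coding gene of a peak, which makes 3 of 8 genes (37.5%) beside 24.6% of all. The same 3 genes had a peak within 10 kb, beside 10.6% of all protein-coding genes, and Neurog2 alone had one within 500 bp, beside 1.84%. With 8 genes and 1 library these shares were not tested against the background, and the share at 100 kb lies near it. The order of the genes by peak count has no spread, and neighbours in it that differ by 1 peak cannot be separated.

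**Figure D1:**
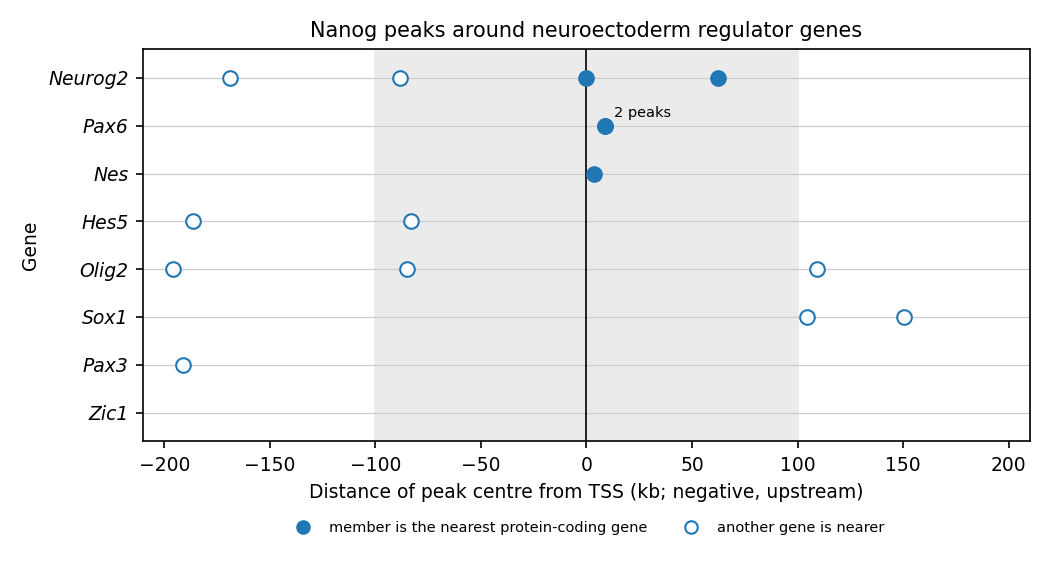
Distance in kb of each Nanog peak from the TSS of the 8 genes, negative upstream, with the 100 kb limit shaded; filled points are peaks whose nearest protein-coding gene is the named gene and open points those nearer to another gene. The 2 peaks of Pax6 are drawn on top of each other, and Zic1 has no peak in the range shown.

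**Figure D2:**
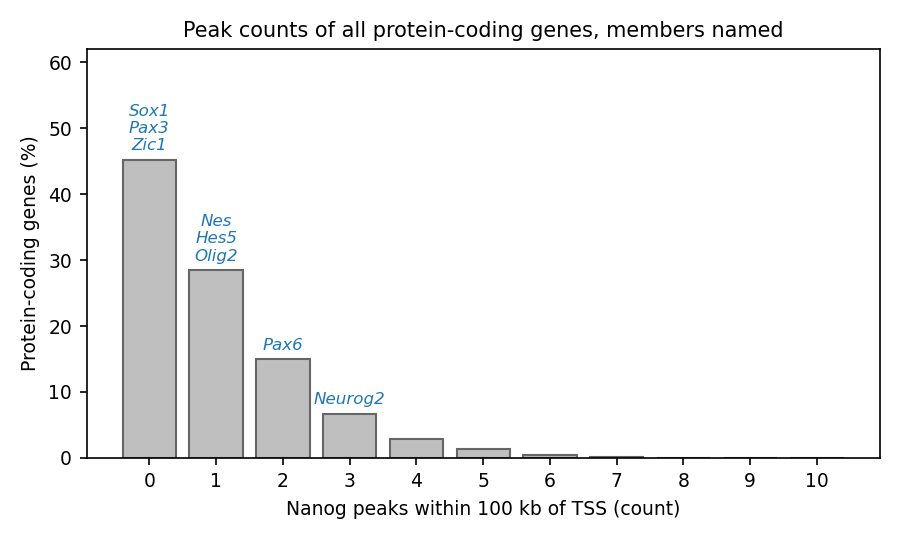
Percentage of 21755 protein-coding genes with each number of Nanog peaks within 100 kb of the TSS, with the 8 genes named above their bar. Neurog2 stands at 3 peaks, a count reached or passed by 11.4% of genes, and Sox1, Pax3 and Zic1 stand with the 45.2% of genes that have 0.

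Among the proneural factors, Neurog2 (ENSMUSG00000027967.8, chr3:127633135-127635631, plus strand), which commits progenitors to a neuronal fate, had the closest peak of the 8 genes. That peak, 237 bp wide, lay in intergenic sequence with its middle 425 bp upstream of the TSS, and 98.3% of protein-coding genes had their closest peak at least as far away. It was rich in G and C, at 65.8%, and its ratio of observed to expected CpG dinucleotides was 0.978, a value reached by 0.698% of all peaks. It held none of the 10 motifs.

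The other peaks around Neurog2 lay far off and inside other genes. The peak 62539 bp downstream (chr3:127695539-127695809, 271 bp) fell in a coding exon of Alpk1, which encodes an alpha-kinase, although the TSS of Neurog2 was the nearest protein-coding start by the gene's 5′ end. When every annotated transcript start was used, Alpk1 became its nearest gene, at 9334 bp. The peak 88315 bp upstream (chr3:127544702-127544939, 238 bp) fell in an intron of Larp7, whose product binds the 7SK RNA, and the TSS of Larp7 was 8529 bp away. The middle of this peak lay 408 bp upstream of the precursor of Mir302b and 913 bp upstream of that of Mir367. Mir302c, Mir302a and Mir302d of the same microRNA cluster lay between them. Of the 3 peaks counted for Neurog2, then, 1 lay at its promoter and 2 lay within other genes.

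Nes (ENSMUSG00000004891.16, chr3:87971078-87980451, plus strand), which encodes the intermediate filament protein nestin of neural progenitors, had 1 peak, 3528 bp downstream of its TSS (chr3:87974451-87974761, 311 bp). The peak lay in intron 2, which spans chr3:87973117-87974801, and its end was 40 bp short of the end of that intron. Intron 2 of Nes is known for an enhancer active in neural progenitors, but the boundaries of that element were not used here. No other peak lay closer to it than 203 kb.

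Pax6 (ENSMUSG00000027168.21, chr2:105668900-105697364, plus strand), a paired-box factor of the eye, forebrain and neural tube, had 2 peaks side by side, 8622 and 8980 bp downstream of the TSS. They were 239 and 253 bp wide, were separated by 112 bp and together spanned 604 bp of intron 1 or intron 2, depending on the transcript. A neighbour this close is uncommon, since 1.91% of all peaks had another within 300 bp. Pax6 has several promoters, and the middles of the pair lay 869 and 511 bp upstream of the start of an annotated transcript at position 105678391. When each gene was represented by its 5′ end alone, the nearest start of any gene belonged to the antisense gene Pax6os1, 7192 and 7550 bp away, so that the pair was assigned to Pax6 among protein-coding genes and to Pax6os1 among all genes.

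Hes5 and Olig2 each had 1 peak, and in both cases it was nearer to another gene. Hes5 (ENSMUSG00000048001.7, chr4:154960923-154962371, plus strand), a bHLH repressor that carries the Notch signal in neural progenitors, had its peak 83327 bp upstream. That peak, 290 bp wide, lay in an intron of Mmel1, a metalloprotease gene whose TSS was 8011 bp away, and 44.5% of its bases were marked as repeats. Olig2 (ENSMUSG00000039830.9, chr16:91225457-91228677, plus strand), a bHLH factor of motor neuron and oligodendrocyte progenitors, had its peak 84809 bp upstream, in an intron of the noncoding gene Gm41492, and the nearest protein-coding TSS, 45.5 kb away, was that of 4932438H23Rik. At 235 bp it had the smallest width in the whole list, a width that 778 peaks (8.91%) had.

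Sox1, Pax3 and Zic1 had no peak within the limit, and their closest peaks lay at very different distances. For Sox1 (ENSMUSG00000096014.1, chr8:12395295-12400126, plus strand), the SoxB1 factor of the early neural plate, the closest peak was 104580 bp downstream (chr8:12499726-12500025, 300 bp), and the TSS of Spaca7 was nearer to it at 73.2 kb. For Pax3 (ENSMUSG00000004872.15, chr1:78101267-78197134, minus strand), a factor of the dorsal neural tube and neural crest, it was 191160 bp upstream, in an intron of Sgpp2 (chr1:78388125-78388463, 339 bp). For Zic1 (ENSMUSG00000032368.14, chr9:91358058-91365810, minus strand), a zinc-finger factor of the dorsal neural tube, it was 531568 bp away in intergenic sequence (chr9:90834061-90834424, 364 bp), and its nearest protein-coding TSS was that of Zic4, at 528 kb. The TSS of Zic1 stood in an interval of 1427 kb without a peak, and 3.28% of the intervals between neighbouring peaks were as long. The intervals around Pax3, at 886 kb, and Sox1, at 316 kb, were equalled or exceeded by 7.14% and 25.9% of all intervals. A TSS falls more often in a long interval than in a short one, and by gene the closest peak was at least as far away for 8.0% of protein-coding genes in the case of Zic1, 26.5% for Pax3 and 43.8% for Sox1.

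The limit of 100 kb decided the call for Sox1. Just inside it lay the peaks at 83.3 kb from Hes5, 84.8 kb from Olig2 and 88.3 kb from Neurog2, and just outside lay those at 104.6 kb from Sox1 and 109.4 kb from Olig2 (chr16:91334698-91334932, 235 bp), the last with Ifnar2 as its nearest protein-coding gene at 38.0 kb. With a limit of 200 kb, 7 of the 8 genes had a peak, beside 74.7% of protein-coding genes, and Zic1 remained without one. With a limit of 50 kb, Neurog2, Pax6 and Nes had one, beside 35.2%.

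**Figure D3:**
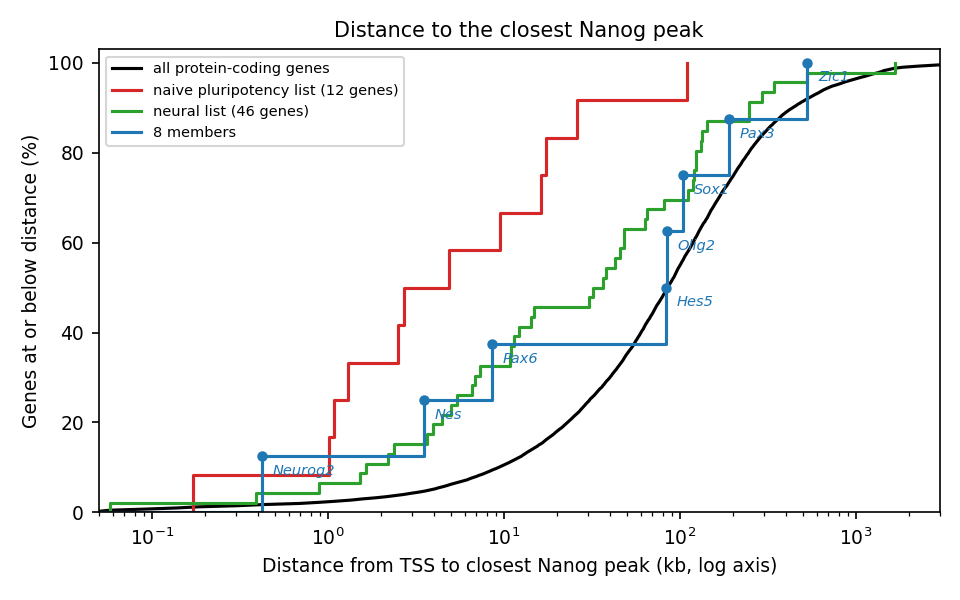
Cumulative percentage of genes against the distance in kb, on a log axis, from the TSS to the closest Nanog peak, for the 8 genes, the neural list of 46 genes, the naive pluripotency list of 12 genes and all protein-coding genes. Each point is drawn at the top of its step, so its side of the curve of all genes is partly set by that placement and is not a result. Zic1, the last point, must lie left of that curve, although its closest peak was at a distance reached by only 8.0% of protein-coding genes. The median of the 8 genes, 84.1 kb, is close to that of all genes, 85.3 kb.

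The space around the genes differs, and so do the counts that can arise there. The stretch of genome with the gene as nearest protein-coding TSS measured 25.8 kb for Nes, 114 kb for Neurog2 and 253 kb for Pax6, which gives 38.8, 17.6 and 7.92 peaks per Mb. It measured 415 kb for Zic1, 398 kb for Pax3, 147 kb for Sox1, 87.3 kb for Olig2 and 17.8 kb for Hes5, each with 0 peaks, where the median of all genes was 47.2 kb. The 8 stretches together held 5 peaks in 1.46 Mb, or 3.43 per Mb, beside 3.46 per Mb over all protein-coding genes. When the stretches were kept to 100 kb from the TSS, the values were 5.88 and 4.52 per Mb. Within 500 kb the median was 4 peaks for the 8 genes and 4 for all genes. Zic1 had 0 peaks within 500 kb, and the other 7 genes had between 2 and 6.

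Taken as separate intervals, the 8 peaks within 100 kb shared a small width. They measured 235, 237, 238, 239, 253, 271, 290 and 311 bp, with a median of 246 bp, beside a median of 319 bp (quartiles 265 to 393) for all peaks. Of all peaks 49.8% were narrower than that median, as were all 8 of these. Peaks around the longer neural list had a median width of 323 bp, with 36 of 76 below 319 bp, and those around the naive pluripotency list had 302 bp, with 25 of 45 below. Peaks around the endoderm list had a median of 265 bp, with 5 of 8 below, and those around the mesoderm list had 362 bp, with 5 of 11 below. Width is not binding strength, and whether the narrow peaks were weakly bound was not tested.

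Content of CpG dinucleotides and of repeats varied among the 8 peaks. The ratio of observed to expected CpG had a median of 0.416 (range 0.123 to 0.978), beside 0.179 for all peaks and 0.176 for the 4093 peaks in the same range of widths. In 6 of the 8 peaks it was above the upper quartile of all peaks, a level passed by 27.0% of the peaks of the same widths. The exceptions were the Pax6 peak at 8980 bp, with 0.123, and the Neurog2 peak at 88315 bp, with 0.258. No repeat-masked base was present in the 5 peaks of Pax6, Nes and Neurog2 for which these genes were nearest, and 30.0% of the peaks of the same widths had none. The 3 peaks nearer to other genes were masked over 10.2% (Olig2), 34.9% (Neurog2) and 44.5% (Hes5) of their bases, beside a median of 11.2% and an upper quartile of 31.1% for all peaks. By position, 6 peaks were in introns, 1 in a coding exon and 1 in intergenic sequence, with 4 upstream and 4 downstream of the TSS. The shares of all peaks in these classes are not given here, so these counts are description only.

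**Figure D4:**
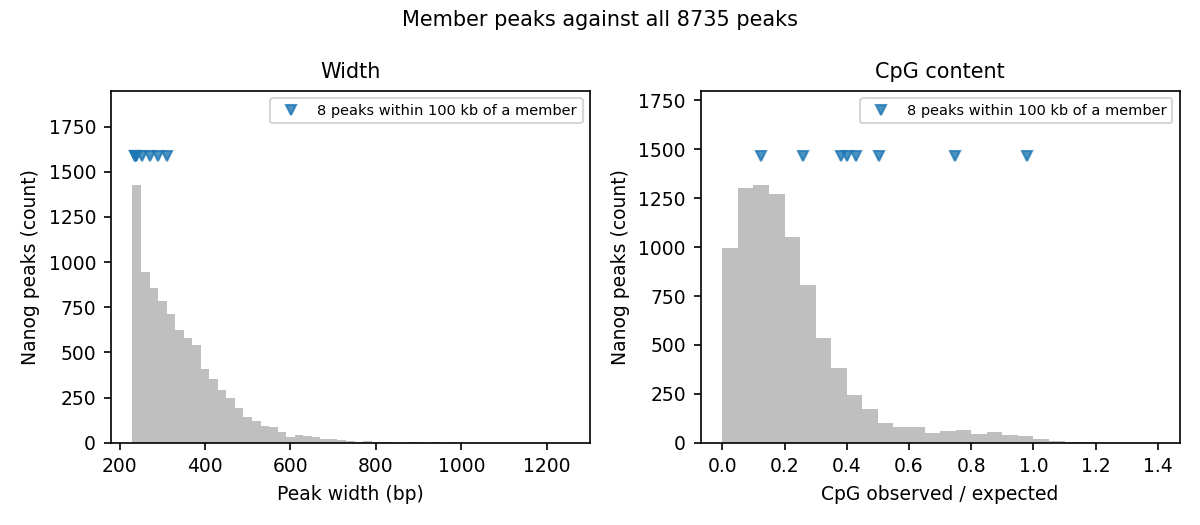
Number of Nanog peaks by width in bp (left) and by the ratio of observed to expected CpG (right) for all 8735 peaks in grey, with the 8 peaks within 100 kb of the genes as triangles placed at their own value. All 8 lie between 235 and 311 bp, and the triangle farthest to the right for CpG, at 0.978, is the peak upstream of Neurog2.

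Of the 8 peaks, 5 held at least 1 of the motifs and 3 held none. Both strands were searched for the Oct octamer ATGCAAAT, the Sox motif CCATTGT or CCTTTGT, the Nanog core CCATTA and its extended form GCCATTAA, the Klf motif GCCACACCC, GCCACGCCC, GCCCCACCC or GCCCCGCCC, the Esrrb motif TCAAGGTCA, the Myc E-box CACGTG, the AP-1 motif TGAGTCA or TGACTCA, the Tead motif GGAATG, and the Oct4-Sox2 composite with at most 2 mismatches. The extended form contains the Nanog core, and the composite can overlap the Oct and Sox motifs. The Nanog core was found in the Olig2 peak and in the Neurog2 peak beside the Mir302 cluster, 2 of 8 peaks, and 13.8% of the peaks of the same widths (18.1% of all) held it. A Sox motif stood in the Nes peak, 112 bp from its middle, where 23.1% of the peaks of the same widths held one (28.1% of all), and it fell outside the central 200 bp. A Tead motif stood in the Pax6 peak at 8980 bp, with 20.3% of the peaks of the same widths holding one (25.4% of all).

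The Hes5 peak held the only match to the Oct4-Sox2 composite, 4 bp from its middle and with 2 mismatches, which 1.32% of the peaks of the same widths also held (1.40% of all). The same peak held an E-box 73 bp from its middle (3.35% of the peaks of the same widths, 4.24% of all), at the edge of a repeat of alternating G and T. None of the 8 peaks held the Oct octamer (4.76% of the peaks of the same widths, 5.72% of all), the extended Nanog form (1.47%, 2.14%), the Klf motif (8.36%, 9.0%), the Esrrb motif (2.98%, 3.53%) or the AP-1 motif (6.60%, 8.04%). The Pax6 peak at 8622 bp and the Neurog2 peaks at 425 and 62539 bp held none of the 10, as did 39.5% of the peaks of the same widths. A motif match describes letters in these windows, and an absent one says nothing of the factor.

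Close relatives of the 8 genes carried different numbers of peaks. In the Sox family, Sox2, a SoxB1 factor that ESCs need for pluripotency and the neural plate also expresses, had 5 peaks within 100 kb, the closest at 3680 bp, and Sox21 had 3, the closest at 6596 bp. Sox11 also had 3, the closest at 30472 bp, whereas Sox3, the other SoxB1 factor, had 0 like Sox1, with its closest peak at 120836 bp. In the Zic family, Zic2 and Zic5, which share a locus, had the same 4 peaks, the closest at 2395 bp from Zic5 and 7363 bp from Zic2. Zic1 had 0, and so did Zic4, its neighbour at 3.40 kb, a gene picked out after its values were seen. In the Pax family, Pax2 had 2 peaks, the closest at 36452 bp, and Pax7 had 0, both likewise picked out after their values were seen.

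Of the 6 proneural and Olig relatives of Neurog2 and Olig2 in the neural list, 2 had a peak at their start, Neurog1 and Atoh1. The closest peak of Neurog1, the paralogue of Neurog2, lay 58 bp upstream of its TSS (chr13:56251931-56252511, 581 bp), with a GC content of 69.9%, a CpG ratio of 0.848, and both an Oct octamer and a Sox motif, none of which occurred in the Neurog2 peak. Atoh1, a proneural factor of the hindbrain and inner ear, had a peak 393 bp downstream, in its coding exon. Among Notch genes, Hes3 and Hes1, effectors like Hes5, had peaks at 896 and 5419 bp, and the ligand gene Dll1 had one at 3956 bp. Dll3 and the receptor gene Notch1, at 12279 and 14823 bp, also had closer peaks than Hes5, at 83327 bp. The genes Hes6 and Hey1, at 246043 and 341640 bp, and the ligand gene Jag1, at 111085 bp, had their closest peaks farther away than Hes5. Olig1, the neighbour of Olig2 at 44.3 kb, had 1 peak, at 65043 bp, which is the one just outside the limit of Olig2. The closest peaks of Olig3, Neurod1 and Neurod4 lay at 48028, 63154 and 123172 bp. Relatives without a peak within 10 kb were chosen after their values were seen.

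**Figure D5:**
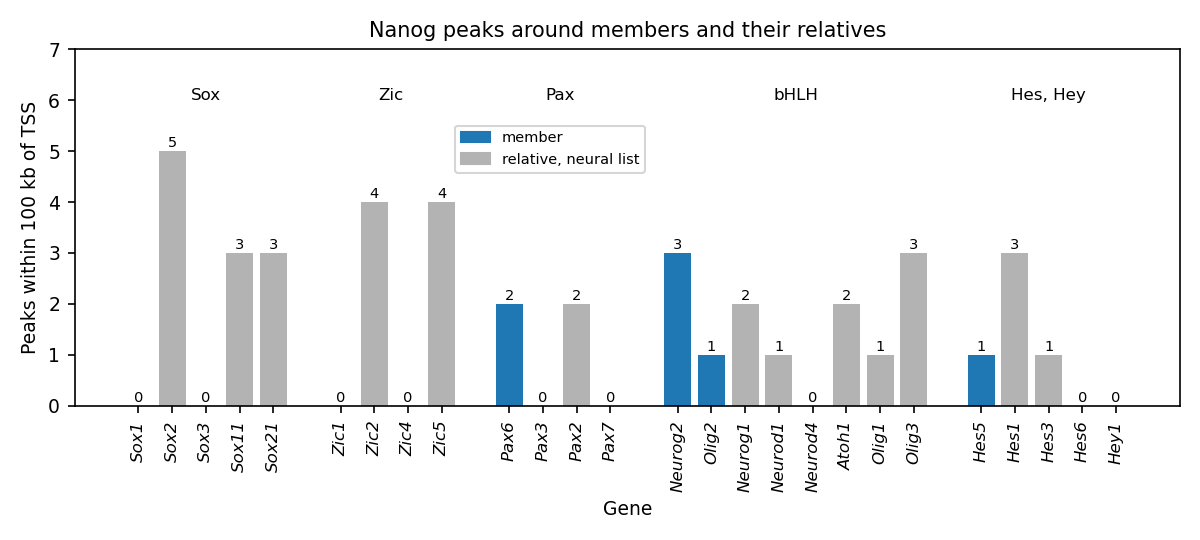
Number of Nanog peaks within 100 kb of the TSS for the 7 of the 8 genes that belong to the Sox, Zic, Pax, bHLH and Hes families (blue) and relatives in the neural list (grey). Sox1, Zic1 and Pax3 stand at 0, Sox2 at 5, Zic2 and Zic5 at 4, and Neurog2 at 3; counts come from 1 library and have no error bars.

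Across the neural list of 46 further genes, 32 (69.6%) had a peak within 100 kb and 15 (32.6%) had one within 10 kb. By family, a peak within 100 kb was found for 3 of 4 Sox, 2 of 3 Zic, 1 of 2 Pax, 5 of 6 proneural and Olig, 5 of 8 Notch, 7 of 9 forebrain and eye-field, and 6 of 7 midbrain, hindbrain and ventral neural tube genes, and for 3 of 7 genes of progenitor and neuron proteins. Of the patterning genes, Otx2 had 7 peaks and Hesx1 had 6, the highest counts of the list. Otx2 was the nearest protein-coding gene of 7 peaks within 100 kb, whereas Hesx1 was the nearest of 0. The closest peak of Hesx1 lay 38065 bp upstream, in an intron of Appl1. Peaks within 10 kb were seen at Rax (1534 bp), Lhx2 (1647 bp), Nkx2-2 (4452 bp) and Gbx2 (4991 bp). The progenitor genes Ncam1 and Msi1 had theirs at 2204 and 6906 bp, whereas Nes had its peak at 3528 bp. Comparison lists gave 11 of 12 naive pluripotency genes, 6 of 10 endoderm genes and 8 of 10 mesoderm genes with a peak within 100 kb. The 5 of 8 of the neuroectoderm genes lay between the share of all protein-coding genes and that of the neural list, and these differences were not tested.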

How the data were processed

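Nanog ChIP-seq was carried out in 1 sample of Bruce-4 ESCs, with 1 input. Per the labels and the study's methods, FastQC served for read quality, Bowtie2 for alignment to mm10, BEDtools and SAMtools for the removal of duplicate, low-quality, mitochondrial and blacklisted reads, and MACS2 for peak calling. The calling threshold and any use of the input as control are not given in the sources used here. The authors deposited peak positions in base pairs, with no score. The input was not analysed here.

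Of 8860 lines, 8737 were distinct intervals, 8735 of them on primary chromosomes. Distances ran from the middle base to the 5′ end of each GENCODE vM21 gene, and the nearest protein-coding gene was sought up to 1000 kb away. Motifs were searched in GRCm38 (the assembly mm10 denotes) without mismatch, except for the composite. Scripts in Python 3.11.15, pandas 2.3.3, NumPy 2.4.6, SciPy 1.17.1 and matplotlib 3.10.9 were tested on simulated data. All 8 genes and their peaks within the limit are named, with the nearest protein-coding gene of each peak. Of the neural list, genes with a peak within 10 kb and the 5 with most peaks are named, and other relatives were chosen after their values were seen. The genes and lists were chosen with earlier results of these data known. Some genes of the neural list are not reported here and enter none of its counts. Alternatives changed the limit, the TSS, the treatment of intervals, the genes considered, the width of peaks and the motif window.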

Additional observations from a re-analysis of the deposited data

How the results depend on the processing

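Of 27 alternative values, 20 stayed within a factor of 1.5 of the reported one and 7 moved. Of the 20, 5 were motif shares of 0, which a smaller window cannot raise. The 8 peaks within 100 kb became 4 with a limit of 50 kb and 15 with 200 kb. The 5 genes with a peak became 3 at 50 kb, which counted as moved, and 7 at 200 kb, which did not. Among peaks at least as wide as the median of the list, 0 of the 8 genes had a peak within 100 kb, beside 34.8% of all protein-coding genes. This 0 follows from the widths already given and is not a separate result. The 5 peaks with one of the genes nearest became 2 when all annotated genes were considered, those of Nes and of the Neurog2 promoter. The density of 3.43 peaks per Mb became 5.88 over stretches up to 100 kb, beside 4.52 for all genes. The 1 peak with a Sox motif lost it when the search was kept to the central 200 bp. Merging peaks within 300 bp joined the Pax6 pair and left 7 peaks. The joined pair spans 604 bp, wider than the median of 319 bp, so the 0 above holds for separate intervals only. No paired analysis was possible because the peak list comes from 1 sample. With 1 library and no strength column, neither biological nor technical spread can be given, and weak binding below the threshold is not visible.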
